A study of Homo sapiens with 48 samples.

Results

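The genes of the eukaryotic translation initiation factors were followed in RNA from HEK293T cells, a human embryonic kidney line, after an electrophile was released next to NCBP1. Members were the rows whose symbol begins with EIF and a digit from 1 to 6, with pseudogenes, hyphenated names and the eIF4E-binding protein genes left out. This rule used no measured value. It gave 48 genes of the 14685 in the count tables, the same 48 at every time point, and left out 9 rows. All 48 passed the filter on low counts, which removed 0 genes.

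All cells came from the same line and were transfected with a plasmid that expresses NCBP1, which with NCBP2 binds the cap of mRNA in the nucleus, fused to Halo. In T-REX, the Halo domain holds a photocaged form of the lipid-derived electrophile HNE, and light sets HNE free beside the fusion protein. The 3 controls were light alone, probe alone and DMSO, and RNA was taken 3, 6 and 12 h later from 4 biological replicates of each arm, 48 libraries in all. The study's definitions give light alone both the photocaged probe and light, leave the light out of probe alone, and leave both out of DMSO, so that as written light alone does not differ from T-REX in these agents. Expression of NCBP1 from a plasmid under transient transfection, in a mixture of cells that took up more or less of it, is common to all 4 arms. In bulk RNA, fewer cells with a transcript and less of it per cell cannot be told apart.

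Initiation begins when eIF2, loaded with GTP and the initiator tRNA, joins the small ribosomal subunit together with eIF1, eIF1A, eIF3 and eIF5. The eIF4F complex, made of the cap-binding protein eIF4E, the scaffold eIF4G and the helicase eIF4A, brings the mRNA to this particle, which scans to a start codon before eIF5B joins the large subunit. eIF2B recharges eIF2 with GTP, and kinases that phosphorylate the alpha subunit of eIF2 block this step under stress. On newly exported mRNA the cap is held by the complex that contains NCBP1 before eIF4E takes its place.

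The total count per library ran from 23952455 to 37099535, and the lowest count of any member in any library was 79. Levels are given as CPM (counts scaled to library size) after TMM scaling over all 48 libraries, and fold changes as log2 values from edgeR with their standard errors (SE). A difference was called at a Benjamini-Hochberg adjusted p of at most 0.05 over all 14685 genes in edgeR's quasi-likelihood test. Of the HEK293T markers, IRS4 lay between 367 and 727 CPM, NEFL between 33.4 and 98.5, and NEFM between 22.2 and 46.4. LHX1 was low, at 0.771 to 3.15 CPM, and PAX2 and SOX11 had no row. Of 9 markers of blood, liver, fibroblast and endothelial cells, 0 had a row. A missing row thus also occurred among the markers of the line itself. NCBP1, from which the plasmid's transcript is not separated, was higher under T-REX than in DMSO by a log2 of 0.50 ± 0.125 at 3 h and 0.73 ± 0.129 at 12 h (SE, n = 4 per arm; edgeR adjusted p = 0.029 and 0.00252), with 0.44 ± 0.136 at 6 h, not called (adjusted p = 0.175). Against light alone it was called at 6 h, at 0.80 ± 0.137 (adjusted p = 0.0214), and not at 3 h (0.30 ± 0.124, adjusted p = 0.262) or 12 h (0.51 ± 0.128, adjusted p = 0.0678). Against probe alone it was not called, at 0.25, -0.19 and -0.04 for the 3 times (adjusted p = 0.308, 0.878 and 0.942). The controls differed among themselves in NCBP1, with probe alone above DMSO at 12 h by 0.77 ± 0.129 (adjusted p = 0.00541) and light alone at -0.99 ± 0.137 from probe alone at 6 h (adjusted p = 0.0144).

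In 3 libraries many members lay at an end of the range of the 16 libraries of their time. DMSO replicate 3 at 12 h was the highest library for 16 members and the lowest for another 16. Light alone replicate 3 at 6 h was the highest for 13 and the lowest for 17. T-REX replicate 4 at 3 h was the lowest for 22 and the highest for 0. Each of the other 45 libraries was at an end for at most 11 of the 48 members. Values without the first and the last of these libraries are given for the calls against DMSO that they enter, but not for single genes over time.

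RefSeq windows of 250 bases before and 50 bases after the start of transcription (GRCh38.p14, 300 bases, written 5′ to 3′ on the gene's strand) are shown for EIF1 and EIF4G2, the members that differed from more than 1 control, and for EIF2AK3, the kinase that was higher than DMSO at 3 h and 12 h. Capitals mark CCAAT (the box of NF-Y), ACGTG (a core of leucine zipper factors), CCGGAAG (a site of ETS factors), TATAAA (the TATA box) and TGATGNAAT (the core of the amino acid response element bound by ATF4), searched on both strands, with overlaps allowed. The EIF1 window is at chr17:41688635-41688934 on the plus strand, the EIF4G2 windows are at chr11:10807947-10808246 and chr11:10808877-10809176 on the minus strand, and the EIF2AK3 window is at chr2:88627415-88627714 on the minus strand.
EIF1: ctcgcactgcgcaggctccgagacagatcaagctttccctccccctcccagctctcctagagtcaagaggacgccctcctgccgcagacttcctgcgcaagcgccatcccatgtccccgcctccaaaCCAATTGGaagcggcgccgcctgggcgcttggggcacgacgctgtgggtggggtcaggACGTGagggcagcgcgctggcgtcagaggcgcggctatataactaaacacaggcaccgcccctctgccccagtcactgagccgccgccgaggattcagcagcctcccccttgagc
EIF4G2, window at chr11:10807947-10808246: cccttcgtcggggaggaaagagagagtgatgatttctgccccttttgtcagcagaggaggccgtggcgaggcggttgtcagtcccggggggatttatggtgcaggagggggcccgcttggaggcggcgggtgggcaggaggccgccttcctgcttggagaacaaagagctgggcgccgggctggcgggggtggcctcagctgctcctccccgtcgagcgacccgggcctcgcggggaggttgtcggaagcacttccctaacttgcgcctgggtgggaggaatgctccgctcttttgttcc
EIF4G2, window at chr11:10808877-10809176: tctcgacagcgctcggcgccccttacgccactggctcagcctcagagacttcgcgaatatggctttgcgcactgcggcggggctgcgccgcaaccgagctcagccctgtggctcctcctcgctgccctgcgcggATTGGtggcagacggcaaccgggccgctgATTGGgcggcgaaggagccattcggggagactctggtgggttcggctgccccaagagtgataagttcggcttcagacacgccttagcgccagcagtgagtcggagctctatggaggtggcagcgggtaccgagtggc
EIF2AK3: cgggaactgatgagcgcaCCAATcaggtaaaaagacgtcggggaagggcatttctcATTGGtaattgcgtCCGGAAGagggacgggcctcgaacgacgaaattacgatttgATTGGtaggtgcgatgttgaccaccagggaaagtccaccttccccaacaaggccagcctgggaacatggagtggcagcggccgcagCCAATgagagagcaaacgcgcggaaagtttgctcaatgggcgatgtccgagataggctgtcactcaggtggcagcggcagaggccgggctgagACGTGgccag

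The tables of RefSeq promoters held 56 windows for 41 of the 48 members. CCAAT was in 39.3% of these windows against 34.6% of all 35116 windows, ACGTG in 37.5% against 21.4%, CCGGAAG in 21.4% against 10.3%, and TATAAA in 1.79% (the window of EIF4A2 alone) against 11.5%. The letters TGATGNAAT were in 0 member windows and in 0.991% of all windows. EIF1 and EIF2AK3 held CCAAT and ACGTG, 1 EIF4G2 window held CCAAT, and the other EIF4G2 window held none of the searched letters. These are descriptions of letters, with no test.

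The members differed widely in level. Per kilobase of exon in the DMSO libraries at 3 h, EIF4G2, a relative of eIF4G that lacks the eIF4E-binding region, was highest with 154 ± 4.91 CPM per kb (SD, n = 4). EIF1, which guards start codon choice, had 151 ± 6.24, and these values overlap. EIF3I and EIF3E, subunits of the eIF3 scaffold on the small subunit, followed with 117 ± 4.94 and 107 ± 3.79, and EIF2S3, the GTP-binding subunit of eIF2, with 98.4 ± 0.661. At the low end were EIF2B5, the catalytic subunit of eIF2B, with 3.47 ± 0.256, EIF4A1, the main eIF4A helicase, with 1.33 ± 0.186, and EIF3C, an eIF3 core subunit, with 0.551 ± 0.0719 CPM per kb.

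The lowest members share much sequence with other genes. Of the 75-base words of its principal transcript in GENCODE 29, EIF4A1 shared 100% with transcripts of other genes and EIF3C 96%, the largest partner being EIF3CL. EIF3L shared 36.1%, EIF2S2 18.5%, EIF5A 18% and EIF6 17.3%. How reads that fit several genes were counted is not given in the sources used here, so the levels of EIF4A1 and EIF3C are uncertain, and EIF3C is compared across arms only as these counts stand.

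**Figure D1:**
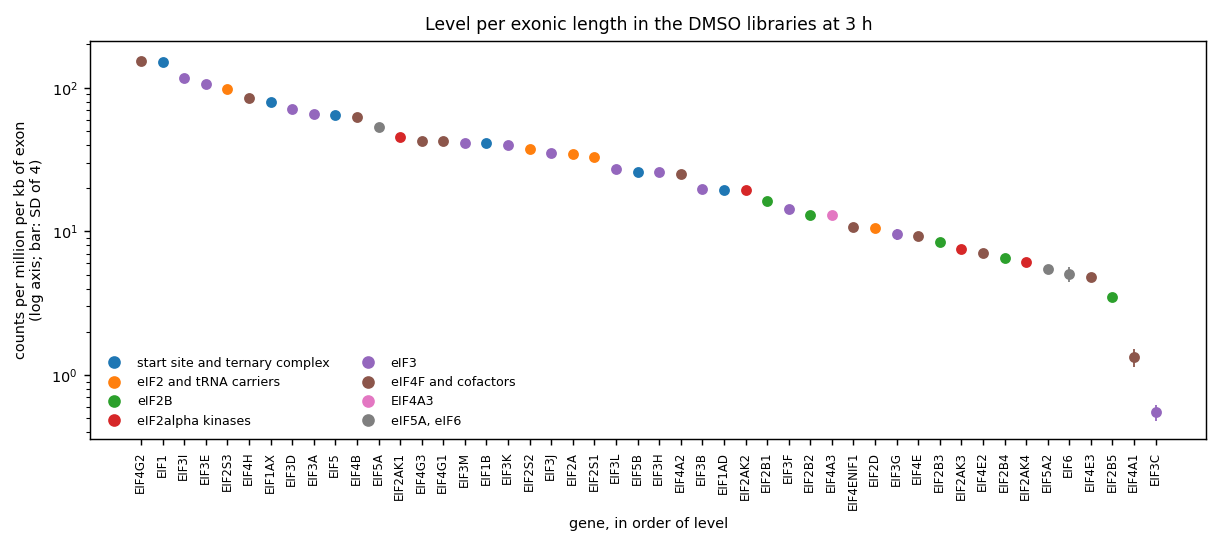
CPM per kilobase of exon in the 4 DMSO libraries at 3 h (log axis, mean with SD) for the 48 genes in order of level, coloured by role. EIF4G2 and EIF1 stand at 154 and 151, and EIF3C is last at 0.551.

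T-REX was compared with each control to see whether release of HNE at NCBP1 changed the transcripts of the initiation machinery. Against DMSO at 3 h, 8 of 48 members were called (16.7%; 5.99% of all genes), 6 lower and 2 higher (4.54% and 1.45% of all genes). At 6 h the count was 0 (0.415% of all genes), with 2 members whose unadjusted p reached 0.05 or less, and at 12 h it was 10 (20.8%; 10.9% of all genes), 7 lower and 3 higher (6.79% and 4.09% of all genes). The members had median log2 fold changes of -0.04, 0.01 and -0.01 at the 3 times, where all genes had 0.03, -0.00 and 0.00. Members were thus called in both directions.

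Against light alone, 0 members were called at 3 h (0.197% of all genes), 0 at 6 h (0.218%) and 1 at 12 h (1.29%). Against probe alone the counts were 0 at 3 h (1.05%), 0 at 6 h (0.109%) and 1 at 12 h (0.701%). Before adjustment, p was 0.05 or less for 12, 8 and 13 members against light alone, and for 13, 1 and 8 against probe alone. The share of all genes at this p is not given here, for these or the other counts before adjustment. Nothing about the members is read from such counts. DESeq2 called 6 members against probe alone at 3 h and 3 against light alone at 12 h (5.67% and 2.96% of the genes it gave an adjusted p). Calls of 1 direction that held for 2 or more controls covered 0 members at 3 h (0.947% of all genes), 0 at 6 h (0.136%) and 2 at 12 h (1.4%), namely EIF4G2 and EIF1.

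The count against DMSO at 3 h was 4 without T-REX replicate 4, 3 without DMSO replicate 1 and 4 without DMSO replicate 2 or 4. The count at 12 h was 9 without DMSO replicate 3, and those at 6 h were 0 whichever library was left out. Fits of T-REX and DMSO alone called 2 members at 3 h, EIF2AK1 and EIF3E, and 3 at 12 h, EIF1AD, EIF2AK1 and EIF4G2 (1.27% and 2.49% of all genes). With the deposited factors of unwanted variation as covariates the counts were 18 and 17 (20.8% and 26.7% of all genes). When DMSO replicate 3 was left out, 6 members were called against light alone at 12 h (EIF1AD, EIF1AX, EIF2AK1 and EIF4G2 lower, EIF3H and EIF4B higher), 2 against probe alone, and 5 against at least 2 controls. The last of these counts was 0 without T-REX replicate 1, 2 or 4, and 1 when T-REX replicate 3, any of light alone replicates 2 to 4, or any of probe alone replicates 1 to 3 was left out. The count against light alone at 12 h was 0 when any T-REX library or any of light alone replicates 2 to 4 was left out, 2 without probe alone replicate 4 and 3 without DMSO replicate 1. Without probe alone replicate 4 the counts against probe alone were 3 at 3 h and 2 at 12 h, and without T-REX replicate 1 that at 3 h was 1. Shares of all genes are not given for counts with a library left out, here or below. No result about the members is read from those counts.

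**Figure D2:**
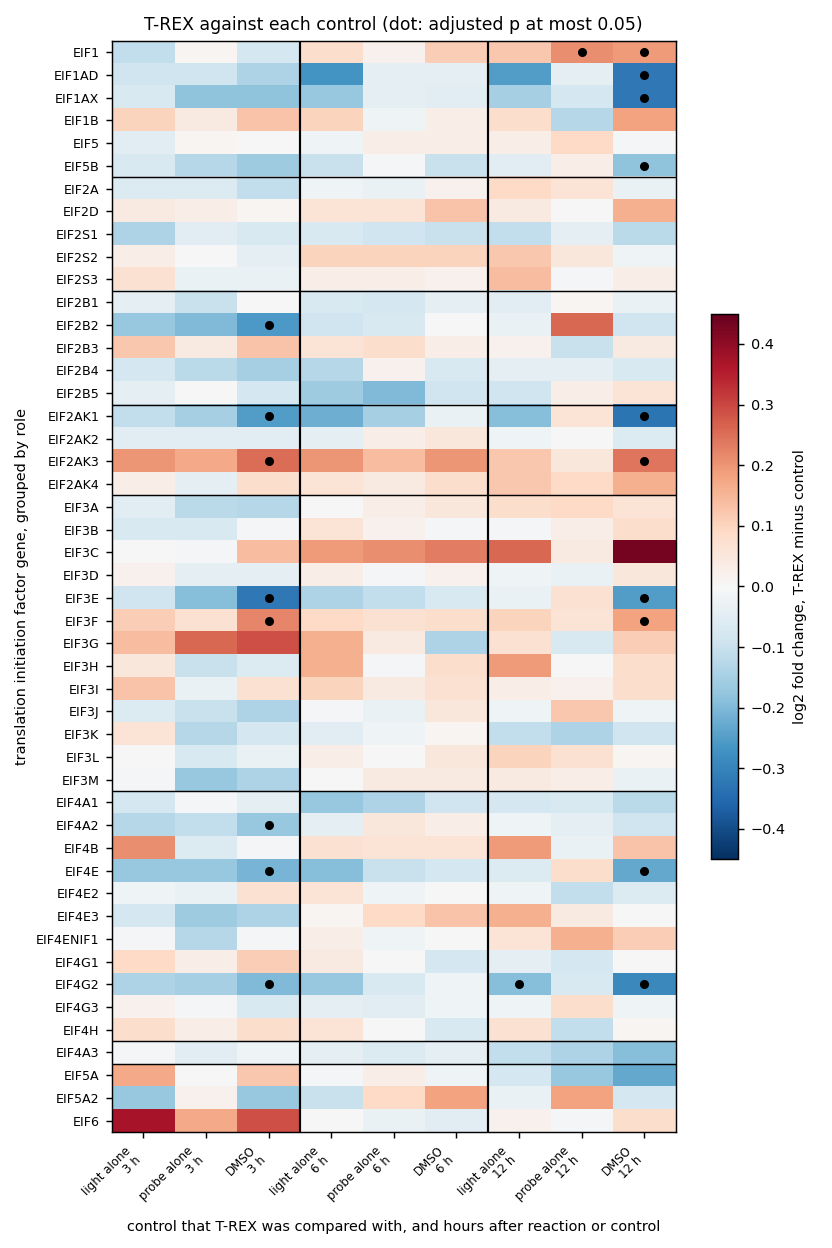
log2 fold change of T-REX minus each control at 3, 6 and 12 h (columns) for the 48 genes by role (rows, lines separate roles), with a dot where the adjusted p was at most 0.05. The 8 dots at 3 h and 8 of the 10 at 12 h that lie in DMSO columns have no dot in another column of the same time.

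In the role group of start site selection and ternary complex delivery, EIF1 was the member called higher under T-REX in the edgeR fit of 16 libraries. At 12 h its level under T-REX was 510, 494, 475 and 511 CPM in replicates 1 to 4, against 443, 470, 448 and 467 with light alone, 424, 418, 408 and 464 with probe alone, and 411, 449, 441 and 437 with DMSO. The 4 T-REX libraries lay above all 12 control libraries. The log2 fold change was 0.21 ± 0.0469 against probe alone and 0.19 ± 0.0469 against DMSO (SE, n = 4 per arm; edgeR adjusted p = 0.0263 and 0.00994), and 0.12 ± 0.0469 against light alone (adjusted p = 0.23). The call against probe alone did not survive leaving out T-REX replicate 1, 2 or 4, nor any of probe alone replicates 1 to 3, with log2 fold changes from 0.19 to 0.22. Without DMSO replicate 3 the difference from DMSO was 0.21, still called. At 3 h the T-REX libraries, at 501 to 546 CPM, overlapped the 518 to 572 CPM of DMSO, and at 6 h their 458 to 493 CPM overlapped the 395 to 494 CPM of DMSO.

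EIF1AX, which encodes the eIF1A that keeps the scanning particle open, fell against DMSO at 12 h. Its levels were 202, 216, 191 and 206 CPM under T-REX and 247, 245, 304 and 218 with DMSO, with no overlap (log2 fold change -0.32 ± 0.0683, SE, n = 4 per arm; edgeR adjusted p = 0.0044). Without DMSO replicate 3, the library at 304 CPM, the value was -0.21 and was still called. Light alone stood at 220 to 231 and probe alone at 208 to 221 CPM, the latter overlapping T-REX.

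EIF1AD, named for its eIF1A-like domain, had 36.6, 37.6, 37.4 and 37.3 CPM under T-REX and 49.7, 43.6, 49.9 and 42.9 with DMSO at 12 h, also without overlap (-0.32 ± 0.0692; adjusted p = 0.004), and without DMSO replicate 3 the value was -0.28, still called. Its light alone libraries, at 40.2 to 48.1 CPM, lay above those of T-REX as well, but that difference of -0.25 ± 0.0692 had an adjusted p of 0.0679. EIF5B, the GTPase that joins the subunits, fell by 0.18 on the log2 scale against DMSO at 12 h (SE 0.0503, adjusted p = 0.0257), from 154, 152, 168 and 148 CPM to 137, 144, 131 and 140. Leaving out DMSO replicate 3, T-REX replicate 1 or T-REX replicate 3 ended that call, with values from -0.17 to -0.13. EIF5, the GTPase activator of eIF2, and EIF1B, a close relative of EIF1, were not called against any control in the edgeR fit of 16 libraries. With the deposited factors of unwanted variation as covariates, EIF1B was called against DMSO at 12 h.

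The eIF2 subunits and the other carriers of the initiator tRNA gave 0 calls against DMSO at every time in edgeR's test. With the deposited factors as covariates, EIF2A was called at 3 h and EIF2D and EIF2S1 at 12 h. EIF2S1 encodes the alpha subunit that the stress kinases phosphorylate. At 12 h it had 133, 132, 122 and 132 CPM under T-REX and 136, 146, 151 and 132 with DMSO, which touch at 132 (-0.12 ± 0.0552, SE, n = 4 per arm; edgeR adjusted p = 0.155). At 3 h the values were 189, 183, 181 and 155 against 184, 194, 173 and 195 CPM and overlapped (-0.07 ± 0.0535, adjusted p = 0.464).

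Of the 5 subunits of eIF2B, EIF2B2, part of its regulatory core, fell against DMSO at 3 h. T-REX libraries had 64.2, 60.8, 58.5 and 53.8 CPM and DMSO libraries 73.5, 68.4, 73.6 and 69.9, with no overlap (-0.26 ± 0.0639, SE, n = 4 per arm; edgeR adjusted p = 0.0196). Leaving out T-REX replicate 4 or DMSO replicate 1 ended the call, with values from -0.25 to -0.22. At 12 h EIF2B2 had 62 to 69.3 CPM under T-REX and 60.2 to 76.3 with DMSO, which overlap, while probe alone stood lower at 50.2 to 59.7 CPM. In the edgeR fit the remaining subunits were not called in any comparison of T-REX with a control.

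Of the 4 kinases of eIF2, 2 were called, in opposite directions. EIF2AK1 encodes HRI, which responds to haem shortage and mitochondrial stress. At 3 h its level was 217, 217, 215 and 202 CPM under T-REX, 236, 226, 228 and 227 with light alone, 247, 247, 229 and 230 with probe alone, and 247, 250, 262 and 252 with DMSO. The T-REX libraries were below all 12 controls, and the difference from DMSO of -0.25 ± 0.0426 was called (SE, n = 4 per arm; edgeR adjusted p = 0.00228), whereas those from light alone (-0.11 ± 0.0426, adjusted p = 0.229) and probe alone (-0.15 ± 0.0426, adjusted p = 0.0783) were not. Without T-REX replicate 4 the difference from DMSO was -0.23, still called.

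At 12 h EIF2AK1 stood at 229, 266, 240 and 250 CPM under T-REX and at 295, 299, 362 and 285 with DMSO (-0.33 ± 0.0628; adjusted p = 0.00145). Probe alone, with 244, 233, 229 and 239 CPM, overlapped T-REX. Leaving out DMSO replicate 3, at 362 CPM, gave -0.25, still called. At 6 h light alone replicate 3 had 352 CPM and the remaining 3 libraries of its arm 230 to 263.

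EIF2AK3 encodes PERK, the kinase of the endoplasmic reticulum, and was higher than DMSO. T-REX libraries had 52.5, 47.8, 48.4 and 44.6 CPM at 3 h, and DMSO libraries 40.4, 40.1, 40.4 and 41.6. These did not overlap (0.25 ± 0.0603, SE, n = 4 per arm; edgeR adjusted p = 0.0177), but light alone reached 45.4 and probe alone 45.6 CPM. At 12 h the values were 42.2, 41.6, 39.8 and 39.3 against 33, 35.8, 32.5 and 36.5 CPM (0.24 ± 0.0632; adjusted p = 0.0163). At 6 h the difference was 0.20 ± 0.0715 with an adjusted p of 0.226. The 3 h call was lost without DMSO replicate 1, 2 or 4 (values from 0.24 to 0.26) and the 12 h call without T-REX replicate 1 (0.22). Both were kept without the libraries that stood apart, at 0.28 without T-REX replicate 4 at 3 h and 0.22 without DMSO replicate 3 at 12 h. EIF2AK2, the kinase PKR, and EIF2AK4, the kinase GCN2, were not called against any control in the edgeR fit, and EIF2AK4 was called against DMSO at 12 h with the deposited factors as covariates.

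**Figure D3:**
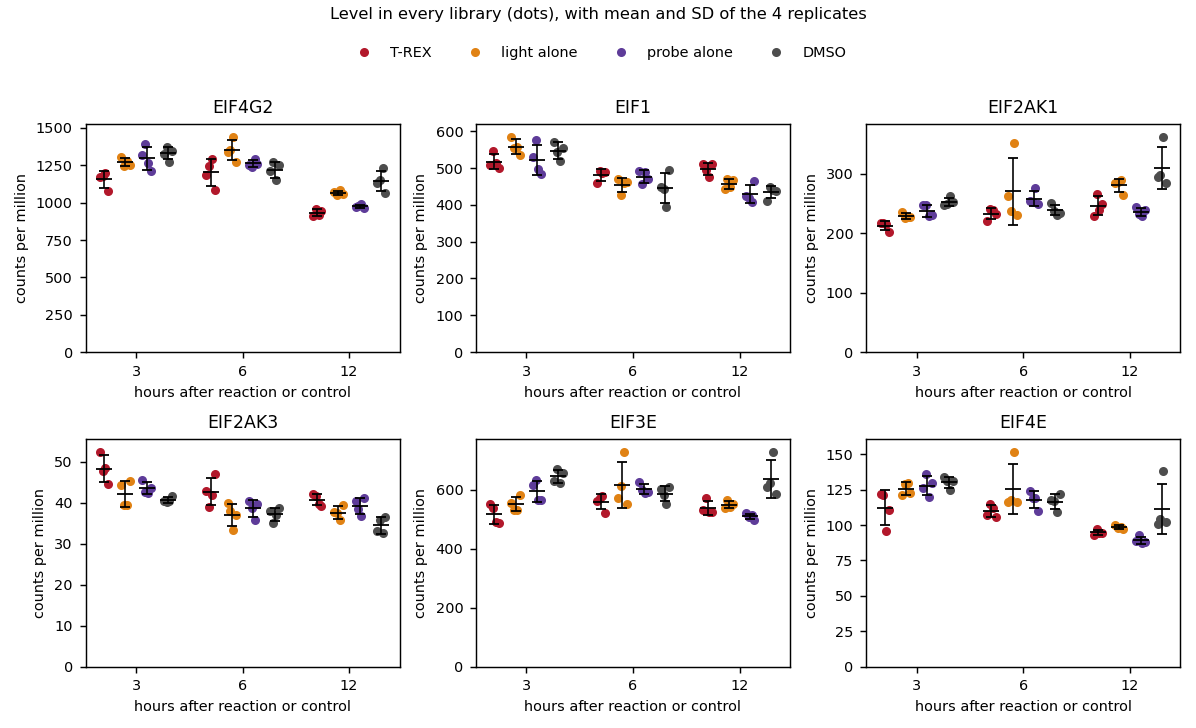
CPM in every library (dots) for 6 genes by arm at 3, 6 and 12 h, with mean and SD of 4 replicates. At 12 h the T-REX dots of EIF4G2 lie below and those of EIF1 above all 12 controls, while the DMSO library at 362 for EIF2AK1, 729 for EIF3E and 138 for EIF4E stands above its arm.

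Of the 13 subunits of eIF3, 2 were called against DMSO at 3 h and at 12 h in the edgeR fit of 16 libraries, in opposite directions. With the deposited factors as covariates, EIF3A, EIF3G, EIF3J and EIF3M were also called against DMSO at 3 h, and EIF3I at 12 h. Leaving out DMSO replicate 3 added a call of EIF3K against DMSO at 12 h. EIF3E had 551, 538, 490 and 489 CPM under T-REX and 630, 672, 623 and 657 with DMSO at 3 h, with no overlap (-0.32 ± 0.0501, SE, n = 4 per arm; edgeR adjusted p = 0.00132). Without T-REX replicate 4 the value was -0.30, still called. Light alone, at 532 to 582 CPM, overlapped T-REX, and probe alone, at 565 to 634 CPM, did not, although that difference of -0.19 was not called (adjusted p = 0.0643). At 12 h T-REX had 530, 572, 526 and 524 CPM and DMSO 609, 623, 729 and 587 (-0.25 ± 0.055; adjusted p = 0.00539), and without DMSO replicate 3 the value was -0.17, still called.

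EIF3F, a subunit with a deubiquitinase-like fold, went the other way. It had 153, 161, 165 and 147 CPM under T-REX against 127, 138, 133 and 142 with DMSO at 3 h (0.22 ± 0.0451; edgeR adjusted p = 0.00773), and 115, 124, 120 and 107 against 100, 105, 98.7 and 105 CPM at 12 h (0.18 ± 0.0492; adjusted p = 0.0185). Neither of these pairs with DMSO overlapped. Light alone, at 141 to 148 CPM, and probe alone, at 147 to 153 CPM, overlapped T-REX at 3 h. At 12 h light alone, at 106 to 110 CPM, and probe alone, at 109 to 115 CPM, overlapped it too. The 12 h call ended when T-REX replicate 2 or 3 was left out, with values from 0.15 to 0.17. The 3 h value was 0.24 without T-REX replicate 4 and the 12 h value 0.17 without DMSO replicate 3, both still called.

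EIF3C had the largest difference of any member from DMSO at 12 h, 0.43 ± 0.171, but was not called (edgeR adjusted p = 0.103). Its T-REX libraries held 4.88, 4.35, 3.51 and 4.16 CPM and its DMSO libraries 3.02, 3.25, 2.99 and 3.27, at the low level and with the shared sequence given above. EIF3G and EIF6 were, among the members higher than the mean of the 3 controls at 3 h, those with the largest values (0.23 ± 0.197 and 0.28 ± 0.138), and neither was called (adjusted p = 0.541 and 0.238). EIF6 had 8.7, 8.49, 15.4 and 7.58 CPM under T-REX and 7.07 to 9.99 in the controls, so that T-REX replicate 3 alone lay above them. The T-REX libraries of EIF3G, from 22.9 to 59.2 CPM, held both the lowest and the highest value of the 16. At 6 h the members with the largest values against the mean of the controls were EIF2B5 at -0.15 ± 0.0688, EIF2AK1 at -0.13 ± 0.0778, EIF3C at 0.21 ± 0.125 and EIF2AK3 at 0.18 ± 0.0577, with adjusted p of 0.462, 0.592, 0.599 and 0.236.

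In the cap-binding complex eIF4F and its cofactors, the calls of the edgeR fit of 16 libraries were lower levels under T-REX. EIF4B was called higher against light alone at 12 h without DMSO replicate 3, as given above. EIF4G2 supports initiation without eIF4E. At 12 h it had 912, 961, 917 and 944 CPM under T-REX, 1069, 1050, 1082 and 1059 with light alone, 970, 977, 990 and 967 with probe alone, and 1130, 1149, 1232 and 1065 with DMSO. All 4 T-REX libraries were below all 12 controls, and probe alone was the next lowest arm. The log2 fold change was -0.29 ± 0.0451 against DMSO and -0.19 ± 0.0451 against light alone (SE, n = 4 per arm; edgeR adjusted p = 0.000226 and 0.0315), and -0.07 ± 0.0451 against probe alone (adjusted p = 0.637).

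The difference of EIF4G2 from DMSO at 12 h was -0.25 without DMSO replicate 3 and was called whichever library was left out. Leaving out any 1 of the 8 libraries of T-REX and light alone ended the call against light alone, with values from -0.20 to -0.17. At 3 h EIF4G2 had 1172, 1181, 1199 and 1075 CPM under T-REX and 1328, 1375, 1275 and 1349 with DMSO (-0.20 ± 0.0481; adjusted p = 0.019), and again lay below all 12 controls. The 3 h call ended when T-REX replicate 4 or DMSO replicate 1, 2 or 4 was left out, with values from -0.20 to -0.17. At 6 h the T-REX libraries ran from 1088 to 1295 CPM and overlapped every control.

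EIF4E, which binds the cap in place of the NCBP1 complex, fell against DMSO by small amounts. At 3 h it had 122, 121, 95.5 and 111 CPM under T-REX and 134, 131, 125 and 131 with DMSO (-0.21 ± 0.062, SE, n = 4 per arm; edgeR adjusted p = 0.0496). Leaving out any 1 of 13 of the 16 libraries ended this call, with values from -0.22 to -0.14. At 12 h the values were 93.2, 97.5, 94.1 and 94.3 against 101, 104, 138 and 102 CPM (-0.23 ± 0.072; adjusted p = 0.0383). Without DMSO replicate 3 the difference was -0.11 and was not called, and it was also lost without any 1 T-REX library or without light alone replicate 2.

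EIF4A2, a helicase that can stand in for EIF4A1, fell against DMSO at 3 h, from 157, 158, 149 and 149 to 142, 138, 137 and 127 CPM (-0.17 ± 0.0486; edgeR adjusted p = 0.044), and leaving out any 1 of 11 libraries ended the call, with values from -0.19 to -0.14. These included every DMSO library, T-REX replicates 2 to 4, and replicates 1 and 3 of light alone and of probe alone. EIF4G1, the main scaffold, was not called at any time in the edgeR fit, but was called against DMSO at 3 h with the deposited factors as covariates. At 12 h it had 292, 286, 284 and 293 CPM under T-REX and 327, 276, 249 and 306 with DMSO, which overlap (-0.00 ± 0.0568; adjusted p = 0.968). EIF4A1 had 5.2, 6.15, 5.72 and 5.11 against 5.91, 5.84, 5.74 and 6.57 CPM, also overlapping (-0.12 ± 0.127; adjusted p = 0.573). EIF4A3, the helicase of the exon junction complex, was not called against any control in the edgeR fit.

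At 12 h EIF4A3 had 39, 40.3, 42.9 and 43.3 CPM under T-REX and 47.7, 45.7, 49.8 and 44.9 with DMSO, with no overlap (-0.19 ± 0.0617, SE, n = 4 per arm; edgeR adjusted p = 0.0522). It was called there with DESeq2, with RLE factors and with the deposited factors as covariates. EIF5A, whose protein carries hypusine, was at -0.23 ± 0.0879 against DMSO at 12 h (adjusted p = 0.0977). Its levels there were 114, 125, 128 and 110 CPM under T-REX and 172, 128, 127 and 130 with DMSO. At 3 h T-REX had 143, 154, 208 and 146 CPM and DMSO 147, 147, 165 and 143, which overlap. The negative value is thus that of 12 h alone. DMSO replicate 1 at 12 h and T-REX replicate 3 at 3 h stood above their arms. With the deposited factors as covariates EIF5A was called against DMSO at 3 h and 12 h and against light alone at 3 h.

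The controls were also compared with each other, on the same DMSO libraries that served the comparisons above. Between any pair of controls, 0 members were called at 3 h (0.232% of all genes) and at 6 h (0.0749%), and 9 at 12 h (5.26%), all of them in probe alone against DMSO (5.11%), 8 lower and 1 higher (3.37% and 1.74% of all genes). In that comparison EIF2AK1 fell by 0.39 on the log2 scale (SE 0.0629, edgeR adjusted p = 0.00136), EIF2B2 by 0.35 (SE 0.0718, adjusted p = 0.00776), EIF3E by 0.32 (SE 0.055, adjusted p = 0.00245) and EIF4E by 0.31 (SE 0.0723, adjusted p = 0.0146). EIF1AD, EIF1AX, EIF4G2 and EIF5B also fell, by 0.28, 0.23, 0.23 and 0.21, and EIF1B rose by 0.31. EIF1 was at -0.02 ± 0.0469 (adjusted p = 0.854). Without DMSO replicate 3, 8 members were called in this comparison, with the share of all genes in that fit not given. DESeq2 called 2 members between controls at 3 h.

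At 12 h the T-REX and probe alone values of these genes are differences from the same 4 DMSO libraries, replicate 3 among them, for genes picked as called there, so they are set side by side and no likeness is read from them. EIF2AK1 was at -0.33 under T-REX and -0.39 with probe alone, EIF3E at -0.25 and -0.32, EIF4E at -0.23 and -0.31, EIF1AD at -0.32 and -0.28, EIF5B at -0.18 and -0.21, and EIF4G2 at -0.29 and -0.23. The direct differences of T-REX from probe alone were 0.06 ± 0.0628 for EIF2AK1, 0.07 ± 0.055 for EIF3E and 0.08 ± 0.0723 for EIF4E (SE, n = 4 per arm; edgeR adjusted p = 0.815, 0.685 and 0.749). EIF2B2 was at -0.09 under T-REX and -0.35 with probe alone, with a direct difference of 0.26 ± 0.0717 that was not called (adjusted p = 0.101) but was called without DMSO replicate 3.

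**Figure D4:**
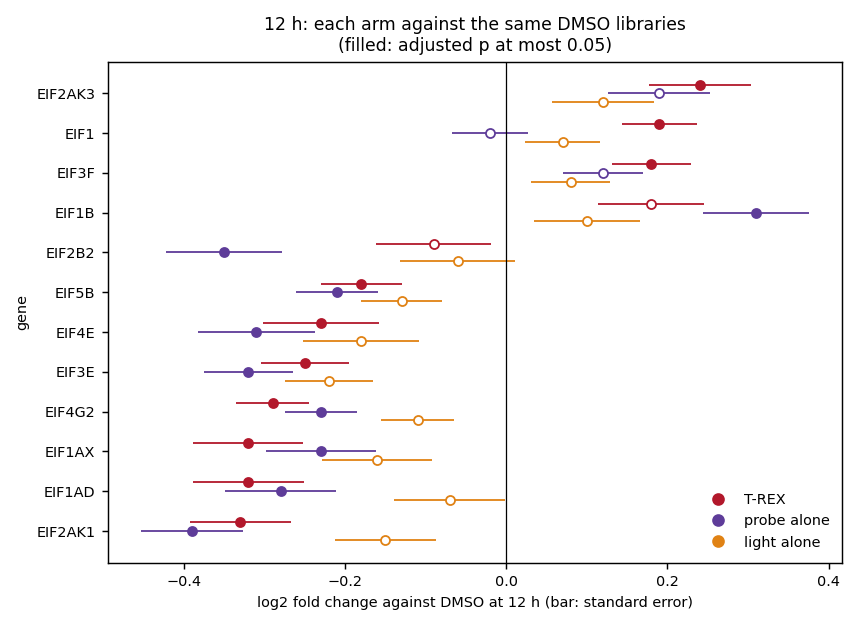
log2 fold change against the 4 DMSO libraries at 12 h (with SE) of T-REX, probe alone and light alone for the 12 genes called in T-REX or probe alone, filled where the adjusted p was at most 0.05. All arms share these DMSO libraries. EIF2AK1 is at -0.33 under T-REX and -0.39 with probe alone, and EIF1 at 0.19 and -0.02.

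Whether the T-REX effect changed with time was tested as an interaction over all 48 libraries, with T-REX taken against the mean of the 3 controls. For 6 h against 3 h, 0 members were called in edgeR's quasi-likelihood test (0% of all genes), with 5 at 0.05 or less before adjustment, and for 12 h against 3 h 0 (0.116%), with 10. DESeq2 called 1 member for 12 h against 3 h. These tests took the mean of the 3 controls, not DMSO, and did not compare 6 h with 12 h. Whether the absence of calls against DMSO at 6 h differs from the calls at 3 h and 12 h was not tested.

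More members were called over time than between arms. The genes named for their time course were chosen after their values were seen. In DMSO, 15 members were called at 6 h against 3 h (31.2%; 16% of all genes), all lower (6.97% of all genes, with 9.05% higher), and 27 at 12 h against 3 h (56.2%; 38.8% of all genes), 24 lower and 3 higher (18.4% and 20.4% of all genes). The median log2 change of the members by 12 h was -0.21, where all genes had 0.01. In T-REX, light alone and probe alone, 28, 28 and 33 members were called at 12 h against 3 h (41.7%, 39.4% and 42.3% of all genes). The members took 0.952% ± 0.0122 of the counts in DMSO at 3 h and 0.871% ± 0.0071 at 12 h (SD, n = 4). The count at 6 h was 9 without DMSO replicate 2 of 3 h. Time of harvest cannot be told apart from any batch of a time point.

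All 6 members placed in the role group of start site selection and ternary complex delivery, EIF1AD and EIF5B among them, fell in DMSO between 3 h and 12 h. Over these hours 18.4% of all genes were called lower in DMSO. EIF1B fell by 0.61 on the log2 scale (SE 0.079, edgeR adjusted p = 2.32e-08), from 82.6, 81.4, 75.8 and 76.9 to 57.9, 53.8, 44 and 52.2 CPM. EIF1AD fell by 0.48 (SE 0.0722), EIF1AX by 0.47 (SE 0.0638), EIF5B by 0.39 (SE 0.0503), EIF1 by 0.33 (SE 0.0515) and EIF5 by 0.30 (SE 0.0491). Under T-REX the same change in EIF1 was -0.06 ± 0.0514 and not called (adjusted p = 0.381), beside -0.29 with light alone and -0.28 with probe alone, and in the interaction test above EIF1 was at 0.24 ± 0.0594 (adjusted p = 0.0701), not called.

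The 3 subunits of eIF2 fell as well in DMSO by 12 h, EIF2S1 by 0.40 (SE 0.0557, edgeR adjusted p = 9.89e-08) and EIF2S2 and EIF2S3 each by 0.23, and in the 3 other arms EIF2S1 fell by 0.45 to 0.48. Of the eIF3 subunits 7 of 13 fell, EIF3B by 0.43 (SE 0.0634), EIF3F by 0.40 (SE 0.0466) and EIF3J by 0.40 (SE 0.0556) among them, and EIF4A3 fell by 0.44 (SE 0.0622). Beside these counts, 18.4% of all genes were called lower in DMSO by 12 h, and 38.8% in either direction. Of the eIF2B subunits only EIF2B3 was called in DMSO, with a fall of 0.25 (SE 0.0753, adjusted p = 0.00707).

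Against this drift, 3 members rose in DMSO by 12 h. EIF4E3, a cap-binding relative of eIF4E, rose by a log2 of 0.37 ± 0.0701 (SE, n = 4 per time; edgeR adjusted p = 3.52e-05), from 51.7 ± 2 to 66.7 ± 7.63 CPM (SD), and by 0.51 under T-REX. EIF2AK1 rose by 0.30 ± 0.0718 (adjusted p = 0.000865) and EIF4A2 by 0.22 ± 0.0503 (adjusted p = 0.00034). With probe alone EIF2AK1 was at -0.01 ± 0.0719. EIF4E fell over the same hours by 0.23 (SE 0.0727, adjusted p = 0.0109), and EIF4G1 by 0.28 (SE 0.0692, adjusted p = 0.00104).

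**Figure D5:**
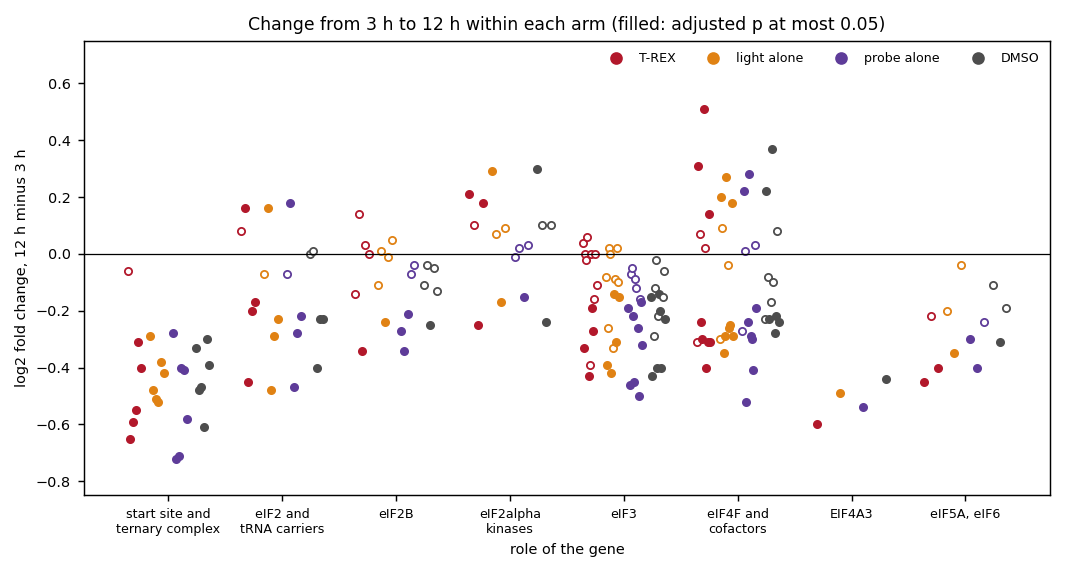
log2 fold change from 3 h to 12 h within each arm for the 48 genes by role, filled where the adjusted p was at most 0.05. The start site group lies below 0 in every arm, and EIF4E3 is the highest point of T-REX, at 0.51, and of DMSO, at 0.37.

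Genes that act on these factors but are no members were taken from lists made by role. Of 14 measured genes that bind or regulate eIF4F, 4 were called against DMSO at 12 h (28.6%, with 10.9% of all genes; 1 higher, 3 lower), 1 at 3 h (7.14%, with 5.99%) and 0 at 6 h (0.415% of all genes). EIF4EBP1, a repressor that holds eIF4E, rose at 12 h by 0.41 ± 0.11 against DMSO and 0.47 ± 0.11 against light alone (SE, n = 4 per arm; edgeR adjusted p = 0.0179 and 0.0282), with 0.24 ± 0.11 against probe alone (adjusted p = 0.418). EIF4EBP2, its close relative, fell by 0.35 (SE 0.059, adjusted p = 0.000586), CYFIP1, another eIF4E-binding protein, by 0.27 and PAIP2, which keeps the poly(A)-binding protein from eIF4G, by 0.23, all against DMSO. EIF4EBP2 was also called lower in probe alone against DMSO at 12 h, by 0.33 (SE 0.059, adjusted p = 0.00293), and T-REX was at -0.01 ± 0.059 from probe alone (adjusted p = 0.961) and at -0.20 ± 0.059 from light alone (adjusted p = 0.0883).

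Of 13 genes around eIF2 phosphorylation, 6 were called against DMSO at 12 h (46.2%, with 10.9% of all genes; 3 higher, 3 lower) and 4 at 3 h (30.8%, with 5.99%; 1 higher, 3 lower). ATF4, whose translation rises when eIF2 is phosphorylated, rose at 12 h by 0.28 ± 0.0529 against DMSO and 0.23 ± 0.0528 against light alone (edgeR adjusted p = 0.00129 and 0.0251), with 0.22 ± 0.0528 against probe alone, not called (adjusted p = 0.0561). PPP1R15A, the regulatory subunit that takes the phosphate off eIF2, rose against DMSO at 3 h by 0.25 ± 0.0724 and at 12 h by 0.54 ± 0.169, and PPP1CC, a catalytic subunit of that phosphatase, fell by 0.35 and 0.23. At 3 h PPP1R15A was at 0.38 ± 0.0725 against probe alone (adjusted p = 0.0147) and at -0.01 ± 0.0721 against light alone (adjusted p = 0.981), and light alone was above probe alone by 0.39 ± 0.0724 (adjusted p = 0.0267). At 12 h it was called against neither of these controls (0.28 against light alone and 0.17 against probe alone, adjusted p = 0.528 and 0.79). PPP1CC was called against probe alone at 3 h, at -0.28 ± 0.0601 (adjusted p = 0.0342). At 12 h probe alone was itself below DMSO in PPP1CC, at -0.26 ± 0.0571 (adjusted p = 0.0117), and T-REX was at 0.03 ± 0.0571 from probe alone (adjusted p = 0.915). IMPACT, an inhibitor of GCN2, rose by 0.28 ± 0.0528 against DMSO at 12 h. These values concern RNA, not phosphorylation, which was not measured here.

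Of 7 genes of initiation on the nuclear cap-binding complex, NCBP1 was called against DMSO at 3 h and 12 h and no other gene was (14.3% at each time, with 5.99% and 10.9% of all genes). As given above, the plasmid's transcript is not separated from NCBP1, and probe alone was also above DMSO in NCBP1 at 12 h. Of 7 genes of alternative initiation and recycling, 2 were called against DMSO at 3 h (28.6%, with 5.99% of all genes), ABCE1 lower and MCTS1 higher. At 12 h 2 were called (28.6%, with 10.9% of all genes), ABCE1 and PELO, both lower. Probe alone was also below DMSO at 12 h in ABCE1, at -0.27 ± 0.0554, and in PELO, at -0.33 ± 0.0762 (adjusted p = 0.0073 and 0.0143), and T-REX was at 0.06 from probe alone in each (adjusted p = 0.743 and 0.836). Of 13 elongation and termination factors, 1 was called against DMSO at 3 h (7.69%, with 5.99% of all genes), EEF1A1 at -0.25 ± 0.0654 (edgeR adjusted p = 0.029), and 1 at 12 h (7.69%, with 10.9%), GSPT1 at -0.18 ± 0.0456 (adjusted p = 0.0116). These shares, next to the background, are no result about elongation and termination factors.

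Of the HEK293T markers, IRS4 and NEFL were called lower under T-REX than in DMSO at 12 h, IRS4 by 0.38 on the log2 scale (SE 0.051, edgeR adjusted p = 6.45e-05) and NEFL by 0.33 (SE 0.0605, adjusted p = 0.00121). NEFM, at 0.14 ± 0.0905, and LHX1, at -0.14 ± 0.235, were not called (adjusted p = 0.32 and 0.752). At 3 h IRS4 was called, at -0.24 ± 0.0566 (adjusted p = 0.0154), and NEFL, NEFM and LHX1, at -0.18, 0.36 and 0.18, were not (adjusted p = 0.275, 0.141 and 0.757). The summed level of the 4 genes, most of which is IRS4, was 619 to 663 CPM under T-REX and 600 to 670 with probe alone at 12 h, against 727 to 798 with light alone and 769 to 862 with DMSO. At 3 h it was 424 to 514 under T-REX and 530 to 551 with DMSO. The part of the lower IRS4 and NEFL in the members' differences was not tested.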

How the data were processed

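RNA-seq of HEK293T cells was analysed in 4 arms at 3, 6 and 12 h (4 biological replicates each, 48 libraries). The authors made stranded, rRNA-depleted, paired-end libraries, demultiplexed with bcl2fastq, and deposited raw counts per gene for each time point. The study's reporting summary names cutadapt, TopHat and Cufflinks for its RNA-seq without saying which of them made the count tables. Genome build and treatment of reads that fit several genes are not given in the sources used here. The authors also deposited log2 CPM, used as an alternative, and a score per library for each of 2 factors of unwanted variation (RUV), used as covariates in another. A transformed version of the log2 CPM was not used here.

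Symbols were taken from GENCODE 29, which held 14556 of 14685 identifiers. The 16 libraries of a time were fitted together with edgeR 4.0.16 in R 4.3.3 (TMM, filterByExpr, robust glmQLFit, quasi-likelihood F-test), with p-values adjusted by Benjamini-Hochberg over all genes in each comparison. Interactions and time differences came from a fit of all 48 libraries. The fit was tested on simulated data. Libraries of the same arm and time varied beyond counting noise (chi-square per degree of freedom 3.15 to 46.5 over 72 pairs). Levels per kilobase use the exons of GENCODE 29, and promoter windows are from RefSeq. Totals per library are raw counts. EIF3C held the smallest member count, 79, and median counts were 116.5 for EIF3C, 180.5 for EIF4A1 and 235.5 for EIF6. For these members counting noise adds to the spread between replicates.

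Named were members called in any of the 9 comparisons of T-REX with a control, at each time the 2 per direction with the largest difference from the mean of the controls, EIF2S1, EIF4E, EIF4G1, EIF4A1, EIF3E and EIF1, and members called both over time and in the interaction test, of which there were 0. For time and between controls, genes were picked by value. The members and lists were chosen with earlier results of these data known. Alternatives were DESeq2 1.42.0, RLE factors, no filter, a mean of at least 100 counts, a block for the replicate number, RUV covariates, fits of only the 2 arms, limma-trend (limma 3.58.1), and each library left out in turn. Splicing was not analysed here, and a further marker is not reported here.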

Additional observations from a re-analysis of the deposited data

Results flagged for a closer look

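Dixon's test was run on the members with printed levels other than EIF3G, EIF5A and EIF6. In these, 15 of 204 groups of 4 libraries (7.35%) held a library far from the other 3, where chance flags about 1 in 20. Light alone replicate 3 at 6 h had 152 CPM of EIF4E beside 116, 116 and 118, and 196 CPM of EIF5B beside 176, 177 and 177. DMSO replicate 3 at 12 h had 138 CPM of EIF4E beside 101, 102 and 104. T-REX replicate 4 at 3 h was low for EIF1AX (279 CPM) and EIF2AK1 (202 CPM), and light alone replicate 1 at 3 h was high for EIF2AK1 (236 CPM) and EIF2B2 (75.7 CPM).

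Single libraries also stood apart for EIF1 (T-REX replicate 1 at 6 h, 458 CPM), EIF3E (T-REX replicate 2 at 12 h, 572 CPM) and EIF4A2 (probe alone replicate 4 at 3 h, 138 CPM). EIF2S1 was low in DMSO replicate 3 at 6 h (150 CPM) and in T-REX replicate 3 at 12 h (122 CPM). Among the lowest members, EIF3C had 3.08 CPM in probe alone replicate 4 at 6 h, and EIF4A1 had 5.58 CPM in DMSO replicate 3 at 3 h and 6.6 CPM in T-REX replicate 4 at 6 h.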

How the results depend on the processing

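The 20 calls of single members kept their direction under all 480 alternative values, 75 of them no longer past the threshold, and 0 reversed. With the RUV factors as covariates, counts of called members against light alone, probe alone and DMSO were 11, 13 and 18 at 3 h (11.8%, 17.4% and 20.8% of all genes). At 12 h they were 9, 4 and 17 (8.62%, 6.14% and 26.7%), and at 6 h 7 against light alone and 2 against DMSO (8.19% and 7.14%). The same fits gave 14, 1 and 5 against at least 2 controls and 10, 8 and 23 between controls at 3, 6 and 12 h. In fits of only the 2 arms, counts against DMSO were 2 at 3 h and 3 at 12 h (1.27% and 2.49% of all genes). At 12 h these fits gave 9 against light alone and 2 against probe alone (7.67% and 2.65%), and 4 against at least 2 controls. At 3 h they gave 1 between controls. DESeq2 gave 6 against probe alone at 3 h (5.67% of the genes with an adjusted p), 5 against at least 2 controls and 2 between controls. At 12 h it gave 3 against light alone and 2 against probe alone (2.96% and 2.07%), and 1 for the interaction. Shares of all genes are not given for counts between controls, against at least 2 controls or for the interaction under these alternatives. No result about the members is read from those counts, and the cause of the shifts was not tested.

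Leaving out each library in turn gave 3 to 10 members against DMSO at 3 h and 7 to 13 at 12 h, 0 to 6 against light alone at 12 h, 0 to 3 against probe alone at 3 h and 0 to 2 at 12 h. Against at least 2 controls it gave 0 to 2 at 3 h and 0 to 5 at 12 h, between controls 0 to 1 at 3 h and 7 to 12 at 12 h, for the interaction at 12 h 0 to 1, and in DMSO over time 9 to 14 at 6 h and 25 to 30 at 12 h. The matching shares of all genes are not given, and nothing about the members is read from these ranges.

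Whether the replicate numbers pair the samples is not settled. Deviations of same-numbered libraries correlated at -0.491 to 0.494 (median -0.00536), above 0.1 in 23 of 72 pairs. Those of libraries with other numbers correlated at -0.542 to 0.533 (median -0.00932), above 0.1 in 46 of 216. With the replicate block, 10 members were called against DMSO at 3 h and 10 at 12 h (6.95% and 10.1% of all genes). At 12 h, 1 was called against light alone and 1 against probe alone (1.26% and 0.613%). With 4 libraries per arm, a difference that was not called is not shown to be absent.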
